A study of Mus musculus with 16 samples.

Results

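The plexins are the receptors of semaphorins, and the 9 plexin genes of the mouse were followed across all 8 peak lists of an Atxn7l3 knockout study. ATXN7L3 is an adaptor protein without which USP22, USP27X and USP51 do not take ubiquitin off histone H2B, and H2Bub1 is H2B with that ubiquitin. Of the plexin genes 4 encode A-type plexins (Plxna1, Plxna2, Plxna3 and Plxna4), 3 encode B-type plexins (Plxnb1, Plxnb2 and Plxnb3), and Plxnc1 and Plxnd1 stand alone in their types. The family is 9 of the 21938 protein-coding genes that were annotated on the assembled chromosomes. The family was selected on measured values of these data, namely a promoter peak of RNA polymerase II (Pol II) that Plxna1 gained in knockout (KO) mouse embryonic stem cells (mESCs) and a long H2Bub1 domain that Plxna4 gained in KO mouse embryonic fibroblasts (MEFs). Those contrasts are described here and not tested.

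Plexins span the plasma membrane, bind semaphorins outside the cell and carry a GTPase-activating domain for Ras-like GTPases inside it. They are best known for steering growing axons, and they also act in vessel growth, bone remodelling, epithelia and the immune system. A-type plexins bind the secreted class of semaphorins together with neuropilins, whereas B-type plexins bind membrane semaphorins and can associate with the receptor kinases MET, RON and ERBB2. H2Bub1 is laid down on transcribed gene bodies as Pol II elongates.

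Pol II (subunit RPB1) and H2Bub1 ChIP-seq of Atxn7l3+/+ (WT) and Atxn7l3-/- (KO) cells was analysed in mESCs and in MEFs, with 1 library per group. The mESCs, derived from blastocysts, grew with LIF and inhibitors of kinases. The MEFs came from individual embryos of E10.5, the day given in the labels, after head and gut had been taken off, and both cell types have the strain background DBA/2 x C57BL/6. The deletion is constitutive, so every cell of a KO sample carries it. With 1 library per group there is no spread between replicates, so no difference below has a test, an error or a p-value. Between WT and KO, the Pol II lists went from 17074 to 11963 peaks for mESCs and from 45870 to 32232 for MEFs, and the H2Bub1 lists from 40979 to 48952 and from 19725 to 28856. Read depth is unknown. At Atxn7l3 itself, a Pol II promoter peak was called in all 4 Pol II lists. By the study's methods the targeted allele has loxP sites around exon 2 to exon 12, a stretch of 3162 bp in the transcript Atxn7l3-201. For mESCs, H2Bub1 peaks covered 100% (WT) and 13.0% (KO) of it, for MEFs 21.6% (WT) and 19.6% (KO), and Pol II peaks covered 20.7% (WT) and 11.9% (KO) in mESCs and 19.3% (WT) and 10.9% (KO) in MEFs. Every peak of a KO list in that stretch also reached past one of its ends, so its middle held none, and since the middle held none in WT MEFs either, the peaks do not check the genotype labels of the MEFs. Of 8 mESC markers 7 had a Pol II promoter peak in both mESC libraries (Esrrb had none), and all 8 fibroblast markers had one in each MEF library and 0 in the mESC libraries.

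Start regions of some plexin genes are shown first, while the Pol II promoter calls below were read at the starts of the gene records. Of the 9 genes, 7 had an entry in the RefSeq promoter table of build GRCm38.p6 (the same assembly as mm10), with 8 start sites, and Plxna1 and Plxna4 are named only. The sequences are the 250 bases before the RefSeq start, 5′ to 3′ on the strand of the gene, with the 6 letters GGGCGG, or CCGCCC where the motif is on the other strand, in capitals. Plxna2 (chr1:194619579-194619828, + strand) is shown because its RefSeq start lies 1611 bp inside the gene record, Plxna3 (chrX:74328816-74329065, + strand) because Pol II was called there in KO mESCs and not in WT mESCs, and Plxnb2 because Pol II peaks lie near both of its starts (chr15:89180789-89181038 and chr15:89173952-89174201, - strand). Plxnb3 (chrX:73756853-73757102, + strand) had no Pol II promoter peak in any library, and Plxnc1 (chr10:94944846-94945095, - strand) had its only such peaks in WT MEFs.
Plxna2: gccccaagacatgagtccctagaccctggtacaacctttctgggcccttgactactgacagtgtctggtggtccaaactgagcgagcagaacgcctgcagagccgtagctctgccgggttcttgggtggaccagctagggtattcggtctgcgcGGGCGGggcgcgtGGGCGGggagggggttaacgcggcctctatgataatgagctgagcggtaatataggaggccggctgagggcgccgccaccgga
Plxna3: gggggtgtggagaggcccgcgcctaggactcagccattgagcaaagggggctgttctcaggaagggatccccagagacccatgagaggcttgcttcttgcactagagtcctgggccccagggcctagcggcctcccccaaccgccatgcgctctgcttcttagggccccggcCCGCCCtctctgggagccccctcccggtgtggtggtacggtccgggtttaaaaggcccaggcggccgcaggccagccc
Plxnb2 upstream start: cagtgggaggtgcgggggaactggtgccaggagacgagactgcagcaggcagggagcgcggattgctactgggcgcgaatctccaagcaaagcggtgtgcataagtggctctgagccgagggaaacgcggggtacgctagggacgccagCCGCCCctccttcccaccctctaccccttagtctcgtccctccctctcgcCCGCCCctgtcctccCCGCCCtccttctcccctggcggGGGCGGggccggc
Plxnb2 downstream start: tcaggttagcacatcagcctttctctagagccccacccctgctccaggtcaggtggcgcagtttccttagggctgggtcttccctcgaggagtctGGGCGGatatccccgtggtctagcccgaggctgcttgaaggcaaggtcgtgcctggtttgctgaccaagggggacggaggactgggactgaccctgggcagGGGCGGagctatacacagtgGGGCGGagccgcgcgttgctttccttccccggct
Plxnb3: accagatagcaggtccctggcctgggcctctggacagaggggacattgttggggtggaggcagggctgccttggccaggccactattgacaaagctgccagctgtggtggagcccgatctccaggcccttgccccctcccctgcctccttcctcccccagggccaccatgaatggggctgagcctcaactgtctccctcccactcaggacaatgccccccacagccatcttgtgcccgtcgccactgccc
Plxnc1: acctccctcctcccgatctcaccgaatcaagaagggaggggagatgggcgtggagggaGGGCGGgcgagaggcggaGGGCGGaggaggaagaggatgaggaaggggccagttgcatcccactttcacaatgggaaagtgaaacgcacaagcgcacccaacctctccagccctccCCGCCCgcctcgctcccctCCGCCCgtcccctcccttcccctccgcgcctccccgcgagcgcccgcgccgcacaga

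The plexin promoters held many CpG dinucleotides, apart from that of Plxnb3. Plxnb1 had 30 of them in its 250 bases, Plxnc1 22, Plxna2 18, Plxnd1 16 and Plxna3 12, while the upstream and downstream starts of Plxnb2 had 20 and 13. Plxnb3 had 3. The median over the 32851 promoters of the table was 6, with an upper quartile of 16. GGGCGG, searched on both strands, occurred in every plexin promoter of the table except that of Plxnb3, with 4 matches at Plxnb1, Plxnc1 and the upstream start of Plxnb2, 3 at the downstream start of Plxnb2, 2 at Plxna2 and 1 each at Plxna3 and Plxnd1. It occurs in 32.7% of all promoters of the table. None of the 8 sequences held TATAAA, found in 12.4% of all promoters. The E-box letters CACGTG, found in 6.02%, and the letters GCATGCG, found in 3.02%, were also missing from all 8. A match of letters is not evidence that a factor binds.

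More plexin promoters had a Pol II peak in MEFs than in mESCs, and the gap was wider in WT than in KO cells. A promoter peak was called where a Pol II peak overlapped a window reaching 1000 bp to each side of the gene record's transcription start site (TSS), and its value is the authors' fold, the pileup over the local background of the same library. Peaks were called at 7 of 9 plexin promoters in WT MEFs (54.1% of all genes) and at 6 in KO MEFs (51.1%). The mESC counts were 2 for WT (33.9%) and 4 for KO (31.3%). Plxnb2 was the only plexin gene called in all 4 libraries. The 5 promoters of Plxna1, Plxna3, Plxna4, Plxnc1 and Plxnd1 were called in WT MEFs and not in WT mESCs (22.0% of all genes), and 0 the other way round (1.82%). Between the KO lists, 4 promoters were called in both cell types (29.7%), namely Plxna1, Plxna3, Plxna4 and Plxnb2, while 2, Plxnb1 and Plxnd1, were called in MEFs only (21.4%) and 0 in mESCs only (1.65%).

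**Figure D1:**
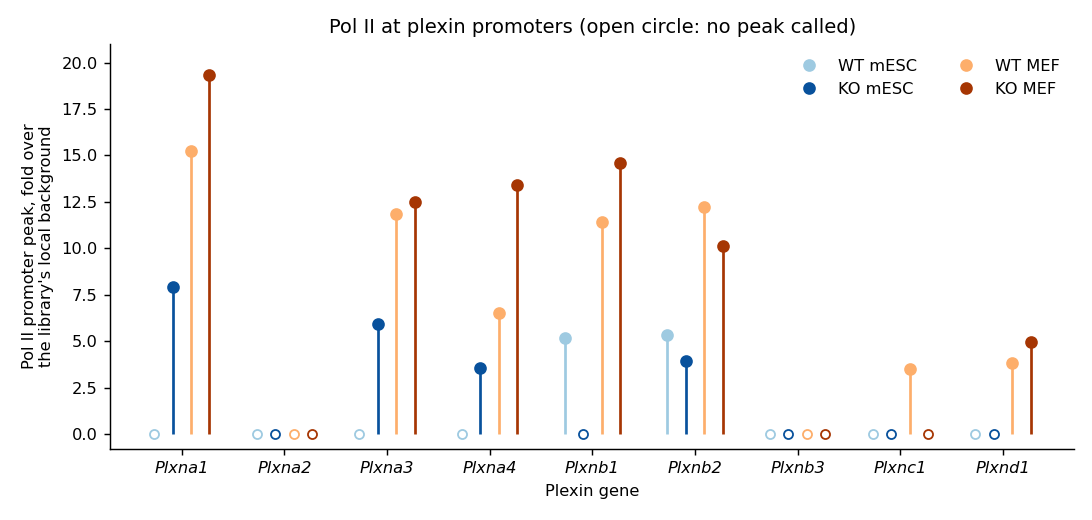
Fold of the Pol II promoter peak (y axis, linear, over the local background of the library) for the 9 plexin genes in the 4 Pol II libraries. Each point is a library, open circles at 0 mean that no peak was called, and the highest value is 19.3 at Plxna1 in KO MEFs.

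Among the A-type plexins, 3 promoters were called in KO mESCs and not in WT mESCs. Plxna1, a receptor that pairs with neuropilins for secreted semaphorins (chr6:89316314-89362620, - strand), had no promoter peak in WT mESCs and a fold of 7.89 in KO mESCs. Its MEF folds were 15.2 for WT and 19.3 for KO. The nearest Pol II peak of the WT mESC list was 47.3 kb from its TSS, past the other end of the gene. The KO mESC peak was 495 bp wide with its summit 98 bp downstream of the TSS, in exon 1, and its fold lay at percentile 90.7 of the promoters called in that library.

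Plxna3 (chrX:74329066-74344689, + strand), a partner of neuropilin-2 for Sema3f, showed the same pattern of calls. It had no promoter peak in WT mESCs and a fold of 5.91 in KO mESCs, with the summit 125 bp downstream of the TSS in exon 1. The MEF folds were 11.8 in WT and 12.5 in KO. Plxna4 (chr6:32144268-32588192, - strand), a receptor of sensory and sympathetic axons for Sema3a and class 6 semaphorins, had no peak in WT mESCs and the weakest of the 3 gained peaks in KO mESCs, with a fold of 3.55 at percentile 17.0 and the summit 8 bp from the TSS. In MEFs its fold was 6.49 in WT and 13.4 in KO. That 2.06-fold ratio of the folds was the highest of the 6 plexin promoters called in both MEF libraries.

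Plxna2 (chr1:194618218-194816869, + strand), a receptor of class 6 semaphorins in the hippocampus and cerebellum, had no peak within the window in any library, but its only coding transcript starts 1607 bp downstream of the start of the gene record. At that coding start the fold was 3.59 in WT mESCs, with the summit 611 bp downstream in intron 1, and no peak was called in KO mESCs. In MEFs the fold there was 7.85 in WT and 9.46 in KO, with summits 71 and 45 bp downstream of the coding start. Read from its coding start, Plxna2 therefore lost its call in KO mESCs, unlike the other A-type plexins.

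Plxna3 lies on the X chromosome, and the mESC libraries differed there as a whole. On the X chromosome lay 0.855% of the Pol II peaks of WT mESCs and 2.76% of those of KO mESCs. For H2Bub1 these shares were 0.569% and 2.2%. Of the coding genes on the X chromosome 12.2% had a Pol II promoter peak in KO mESCs only, against 4.85% of those on autosomes. The part of this in the Plxna3 gain was not tested. Plxna1 and Plxna4 are both on chromosome 6.

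The B-type plexins differed from each other in mESCs. Plxnb1 (chr9:109095389-109119917, + strand), the receptor of Sema4d, had a fold of 5.16 in WT mESCs with the summit 85 bp downstream of the TSS, and no peak in KO mESCs, where the nearest peak was 21.2 kb away. In MEFs its fold was 11.4 in WT and 14.6 in KO. Read at the start of the gene record, it was the only plexin promoter called in WT mESCs and not in KO mESCs. The antisense gene Gm7628 overlaps the start of Plxnb1, and ChIP peaks carry no strand.

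Plxnb2 (chr15:89155549-89180788, - strand), a receptor of Sema4c and Sema4d in cerebellar precursors and epithelia, had mESC folds of 5.32 (WT) and 3.92 (KO) and MEF folds of 12.2 (WT) and 10.1 (KO). As the only plexin gene called in all 4 libraries, it alone could be compared in both cell types. Its fold was lower in KO than in WT in each, with ratios of 0.74 and 0.83. Of all promoters called in both MEF libraries, 32.3% had a higher fold in KO. Plxnb3 (chrX:73757090-73772514, + strand), a receptor of Sema5a found in glia, had no promoter peak in any library. In WT mESCs and in both MEF libraries the nearest Pol II peaks lay past its end, next to or within the neighbouring gene Srpk3, whereas the nearest peak of the KO mESC list was 29.2 kb from its TSS.

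Plxnc1 (chr10:94790866-94944835, - strand), the receptor of Sema7a, had 2 small promoter peaks in WT MEFs, the higher with a fold of 3.47 with the summit 1086 bp downstream of the TSS. No promoter peak was called in KO MEFs or in either mESC library. Plxnd1 (chr6:115954811-115995005, - strand), the endothelial receptor of Sema3e, had no peak in mESCs and low folds of 3.81 in WT and 4.94 in KO MEFs, at percentiles 4.8 and 10.7 of the called promoters. Of 7 endothelial markers, Esam and Kdr had a promoter peak in WT MEFs and Pecam1 in KO MEFs, with summed folds of 5.0 and 4.3, and Cdh5, Emcn, Tek and Tie1 had none in either MEF library.

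Counted over the family, 3 promoters were called in KO mESCs only (5.13% of all genes), 1 in WT mESCs only (7.64%) and 1, Plxnb2, in both (26.2%). The KO-only calls include the contrast by which Plxna1 was chosen. In MEFs 6 were called in both genotypes (49.6%), 1 in WT only (4.41%) and 0 in KO only (1.46%). Of the 6 promoters called in both MEF libraries, 5 had a higher fold in KO, while 32.3% of all promoters called in both did. These 5 were Plxna1, Plxna3, Plxna4, Plxnb1 and Plxnd1, with ratios from 1.06 at Plxna3 to 2.06 at Plxna4.

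H2Bub1 over the plexin gene bodies is measured as the share of the body, from the TSS to the end of the gene record, that lies within peaks. Some H2Bub1 was present on 6 of the 9 genes in WT mESCs (53.6% of all genes) and on all 9 in KO mESCs (60.8%). The MEF counts were 4 for WT (30.4%) and 8 for KO (53.0%). Plxnb3 alone was without H2Bub1 there. These counts rest on the peak threshold. With peaks of a -log10 q of at least 3 the mESC counts were 1 for WT (21.3% of all genes) and 4 for KO (44.0%), and the MEF counts were 2 for WT (5.52%) and 6 for KO (48.1%). The covered part was larger in KO than in WT for 7 genes in mESCs (53.3% of all genes) and for 8 in MEFs (52.6%), and it was smaller for 2 in mESCs (9.34%) and for 0 in MEFs (0.506%).

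**Figure D2:**
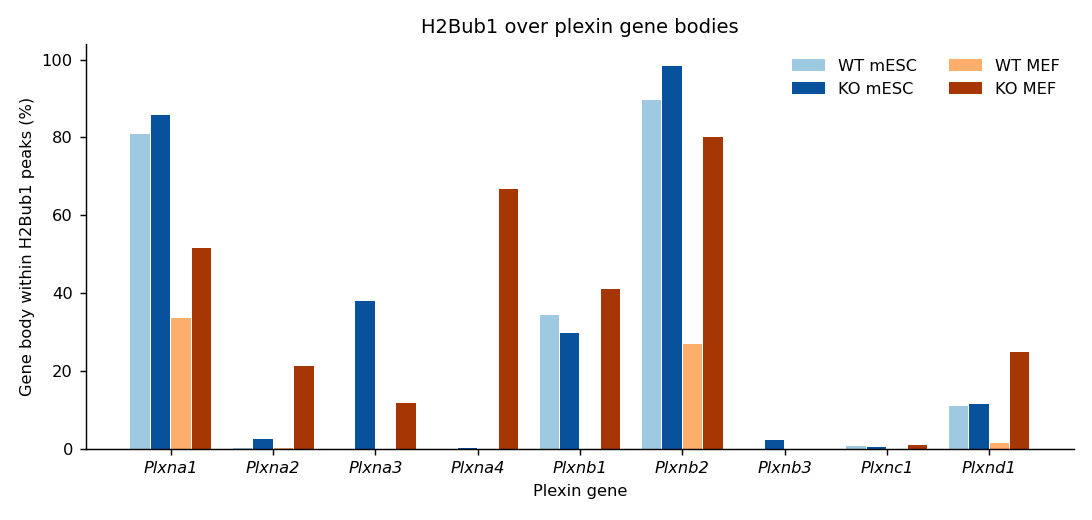
Percent of each plexin gene body within H2Bub1 peaks (y axis, from 0), with 1 bar for each of the 4 H2Bub1 libraries. Plxna1 and Plxnb2 are covered by more than any other plexin gene in both mESC libraries, and Plxna4 stands at 66.7% in KO MEFs against 0 in WT MEFs.

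Plxna1 and Plxnb2 carried H2Bub1 over most of their bodies in mESCs of both genotypes. In mESCs Plxna1 was covered over 80.9% (WT) and 85.7% (KO), and in MEFs over 33.7% (WT) and 51.5% (KO). Plxna1 had H2Bub1 over 37.5 kb in WT mESCs, although no Pol II promoter peak was called there. Of the 14511 coding genes without a Pol II promoter peak in WT mESCs, 154 (1.06%) had at least as large a share of the body covered.

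In mESCs Plxnb2 was covered over 89.6% (WT) and 98.4% (KO), and in MEFs over 26.8% (WT) and 80.1% (KO). In KO MEFs a peak of 20.5 kb began 3.07 kb upstream of the TSS, and so reached into Dennd6b, whose record ends 1424 bp from that of Plxnb2. In WT MEFs 5 separate peaks covered 6.77 kb of the gene. The mESC values of both genes depend on the peak threshold. With peaks of a -log10 q of at least 3, the difference between KO and WT mESCs became 98.37 percentage points at Plxnb2, where both WT peaks left the list and the KO peak stayed. At Plxna1 peaks left both lists, so that 42.3% (WT) and 60.8% (KO) of the body were covered, a difference of 18.51.

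**Figure D3:**
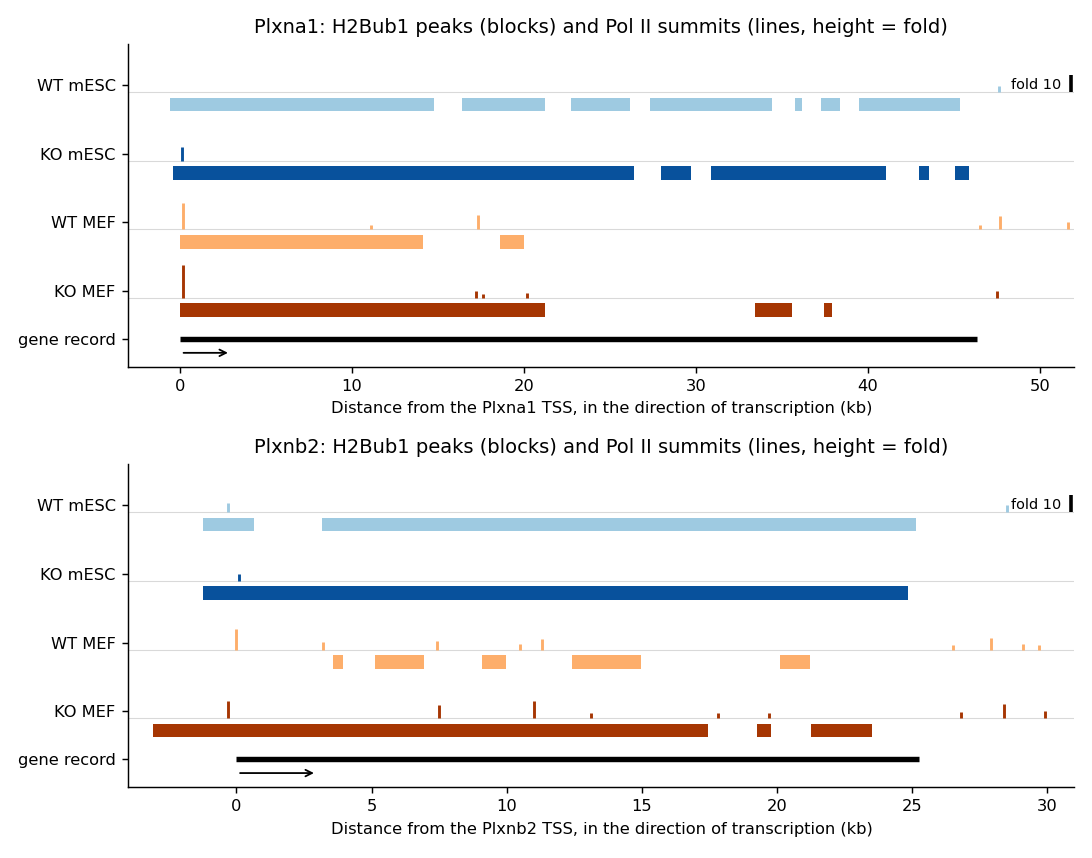
Maps of Plxna1 (top) and Plxnb2 (bottom), with the distance from the TSS in kb on the x axis. Blocks are the H2Bub1 peaks that overlap the gene, lines are Pol II summits with a height in proportion to their fold (scale bar at the right, fold 10), the black bar is the gene record and the arrow its direction. Plxna1 has a Pol II line at its TSS in every library except WT mESCs, and a Pol II peak past its end in every library except KO mESCs.

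Plxna2 and Plxnd1 had little H2Bub1 in WT MEFs and more in KO MEFs. Plxna2 was covered over 344 bp of WT and 5.17 kb of KO mESC chromatin, and in MEFs over 601 bp (WT) and 42.3 kb (KO), which is 21.3% of the body. Plxnd1 had 4.46 kb (WT) and 4.57 kb (KO) in mESCs, or 11.1% and 11.4% of its body, and 0.61 kb (WT) and 9.97 kb (KO) in MEFs, the last being 24.8% of its body. The mESC values of Plxnd1 thus differed by 0.3 percentage points. With peaks of a -log10 q of at least 3 the difference was 3.42 points.

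Plxna3, Plxnb1 and Plxnc1 had no H2Bub1 peak in WT MEFs and at least 1 in KO MEFs. Plxnb1 went from 0 to 41.0% of the body in MEFs, whereas in mESCs it stood at 34.3% in WT and 29.8% in KO. Plxna3 had none in WT cells of either type, and 37.9% in KO mESCs and 11.8% in KO MEFs. Plxnc1 had 0.793% in WT and 0.395% in KO mESCs, and 0 and 0.946% in MEFs, and each of these peaks was short and within 2 kb of the TSS. With the H2Bub1 lists of MEFs brought to equal numbers of peaks, or with a -log10 q of at least 3, the KO MEF peaks of Plxna3 and Plxnc1 were no longer there.

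Plxnb3 had a single H2Bub1 peak of 367 bp, in KO mESCs. Plxna3 and Plxnb3, the plexin genes on the X chromosome, were thus among the 3 plexin genes with H2Bub1 in KO mESCs only (10.1% of all genes), the other being Plxna4 with 796 bp. No plexin gene had H2Bub1 in WT mESCs only (0 of 9, and 2.97% of all genes). Of the coding genes on the X chromosome, 25.4% had H2Bub1 in KO mESCs only, against 9.53% on autosomes, and the part of this in the plexin values was not tested. All 3 calls were lost with peaks of a -log10 q of at least 3. In MEFs 4 plexin genes had H2Bub1 in KO only (22.9%), namely Plxna3, Plxna4, Plxnb1 and Plxnc1, and 0 in WT only (0.278%).

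In all 4 libraries more plexin genes had H2Bub1 near the TSS than near the end, and so did more coding genes as a whole. Each gene body was cut into 10 equal segments, counted from the TSS. In KO MEFs 8 of the 9 genes had H2Bub1 in segment 1, with a median cover of 94.9%, and only Plxnb2 had any in segment 10. Of all coding genes 48.4% had H2Bub1 in segment 1 and 19.5% in segment 10 of that library. The KO mESC counts were 7 in segment 1 (52.3% of all genes) and 3 in segment 10 (27.3%). Those of WT mESCs were 6 (40.2%) and 2 (22.4%). In WT MEFs Plxna1 and Plxna2 alone had any in segment 1 (20.3% of all genes), and 0 had any in segment 10 (4.99%). There Plxnb2 had none in segment 1 and its highest cover, 92.1%, in segment 6.

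**Figure D4:**
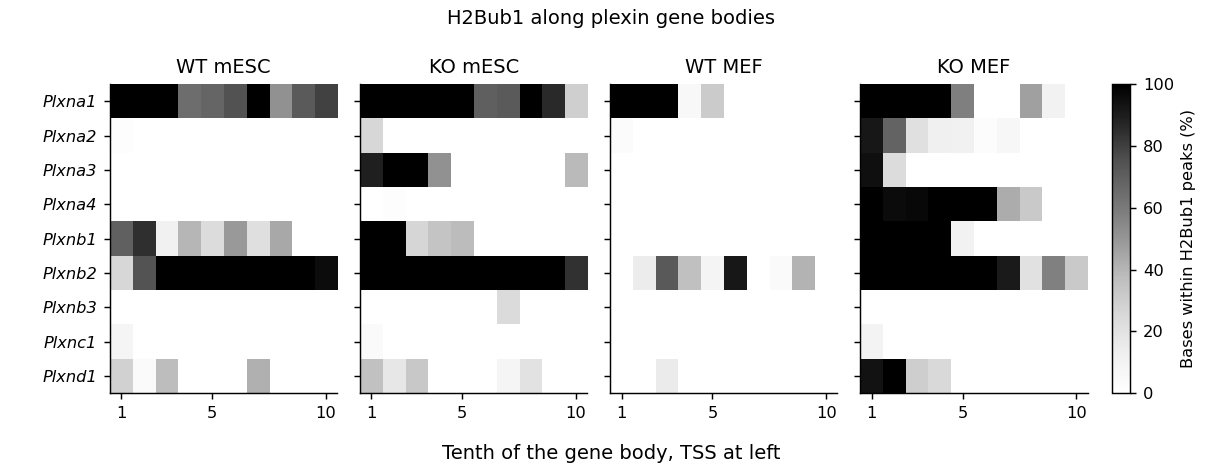
Percent of bases within H2Bub1 peaks (grey scale, 0 to 100) in each of 10 equal segments of the 9 plexin gene bodies, from the TSS at the left to the gene end at the right, in the 4 H2Bub1 libraries. Cover in KO MEFs is densest in the segments next to the TSS, and Plxnb2 in both mESC libraries is covered nearly from end to end.

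Plxna4, the longest plexin gene at 443.9 kb, had no H2Bub1 peak in WT MEFs and 18 peaks in KO MEFs, which covered 296 kb or 66.7% of its body. By covered bases it ranked 13 among all coding genes of that library. The leading peak began 3.87 kb upstream of the TSS and was 90.4 kb long, and the following peaks were 40.6 and 143.4 kb long. Intron 1 (69.5 kb) was covered fully, intron 2 (19.6 kb) over 90.5% and intron 3 (186.1 kb) over 98.3%. Of the 166.3 kb beyond intron 3, 14.2% was covered. The 15 later peaks were each shorter than 4 kb, and no peak began later than 335.8 kb from the TSS.

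Of the 288 coding genes at least as long as Plxna4, itself included, 69 had H2Bub1 in WT MEFs and 105 in the KO library, where the median cover was 0, and 4 were covered at least as much as Plxna4. In mESCs the H2Bub1 of Plxna4 was confined in these lists to 796 bp in KO, within exon 2, and was absent from the WT list.

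Plxna4 also had more Pol II peaks in its body in KO than in WT MEFs. WT MEFs had 2 Pol II peaks in the body, both in intron 3, and KO MEFs had 17, of which 3 were in intron 1, 2 in intron 2, 11 in intron 3 and 1 in intron 20. The peaks of WT MEFs, at 108.8 and 190.8 kb with folds of 3.43 and 2.83, had counterparts in KO MEFs at 108.7 and 191.0 kb with folds of 4.80 and 3.19. The peaks at 74.1 and 77.0 kb in KO MEFs lie within Plxna4os1, an antisense gene in intron 2, so they cannot be given to either gene. Over all coding genes, 8.69% had more Pol II body peaks in KO than in WT MEFs and 21.2% had fewer, and 45 genes, Plxna4 among them, gained at least 15.

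**Figure D5:**
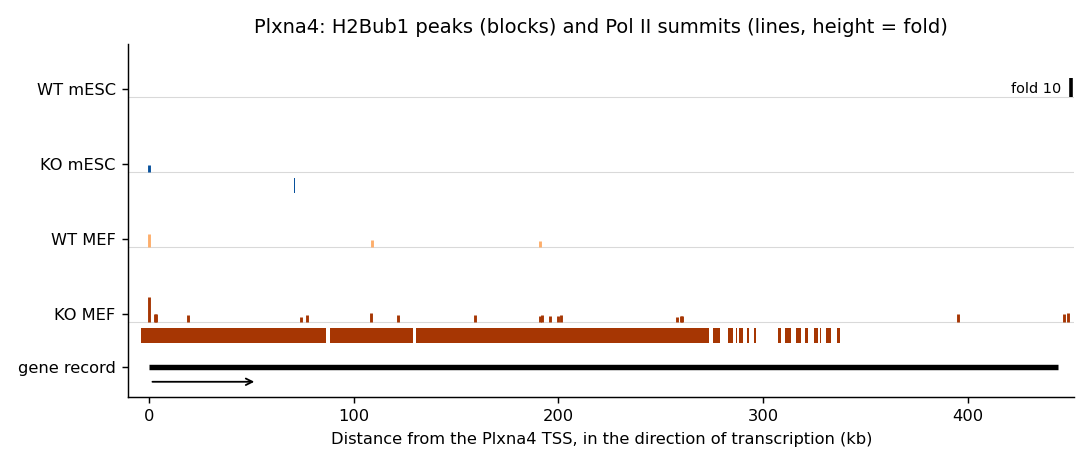
Map of Plxna4, with the distance from the TSS in kb on the x axis and the 4 groups on the y axis. Each block is an H2Bub1 peak, lines are Pol II summits with a height in proportion to their fold (scale bar at the right, fold 10), the black bar is the gene record and the arrow its direction. The KO MEF track holds 18 H2Bub1 peaks and 17 Pol II peaks in the body, the WT MEF track 0 and 2.

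Over the family, counted outside the promoter window, mESCs had 2 Pol II body peaks in WT and 0 in KO, while MEFs had 12 (WT) and 28 (KO). Without Plxna4 the MEF counts were 10 (WT) and 11 (KO). These counts include the peak at the coding start of Plxna2, described above as a promoter peak, and without Plxna2 they were 1 (WT) and 0 (KO) in mESCs and 11 (WT) and 27 (KO) in MEFs. In mESCs, 2 genes had Pol II bases in the body outside the window in WT (20.0% of all genes) and 0 in KO (13.3%). In MEFs 6 had such bases in WT (41.0%) and 6 in KO (32.9%), and the bases summed to 12.8 kb in WT and 27.5 kb in KO. Without Plxna4 the sums were 12.1 and 17.0 kb, a ratio of 1.41, and without both Plxna4 and Plxnb2 the direction turned, with 7.55 kb in WT and 5.33 kb in KO, a ratio of 0.706. Over all coding genes the ratio was 0.591. These sums count every Pol II base of the body beyond the window, so they include the ends of wide promoter peaks. In KO MEFs Plxnb1 had 2625 such bases, although its only body peak was 291 bp wide and its promoter peak 4246 bp. The WT MEF value of Plxnb1 was 1120, beside a body peak 932 bp wide. The coding-start peak of Plxna2 is included too, with 1296 (WT) and 572 (KO) bases. Whether the direction also turns for body peaks alone was not tested.

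Plxna1 had a broad Pol II peak in intron 3 of WT MEFs, 3008 bp wide with a fold of 8.48 and its summit 17.3 kb from the TSS. In KO MEFs the peak at 17.2 kb was 637 bp wide with a fold of 4.13. Both overlap Gm44207, an uncharacterised record on the opposite strand. Past the end of Plxna1, at 47.7 kb in WT and 47.5 kb in KO MEFs, a peak within the antisense gene Gm26811 had folds of 7.76 and 3.78. At both places the value was lower in KO MEFs, in contrast to the promoter of Plxna1.

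Plxnb2 had 4 body peaks in WT MEFs and 5 in KO MEFs. Those at 7420 bp in WT and 7546 bp in KO lay near the downstream RefSeq start shown above, which is 6837 bp from the upstream one, and had folds of 4.96 and 7.53 and widths of 804 and 4614 bp. At 11279 bp in WT and 10961 bp in KO, in intron 3, the folds were 6.10 and 9.74. Both were thus higher in KO, while the promoter fold of Plxnb2 was lower in KO.

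Plxnc1 held the strongest body peak of the family, in intron 21 of WT MEFs, 120.1 kb from the TSS, with a fold of 10.8 over 748 bp. Its own promoter reached 3.47 in the same library, and no body peak was called at that place in KO MEFs. The 200 bases around the summit (chr10:94824639-94824838, - strand, GRCm38) are shown to set them beside the promoter above, with each CpG in capitals.
Plxnc1 intron 21: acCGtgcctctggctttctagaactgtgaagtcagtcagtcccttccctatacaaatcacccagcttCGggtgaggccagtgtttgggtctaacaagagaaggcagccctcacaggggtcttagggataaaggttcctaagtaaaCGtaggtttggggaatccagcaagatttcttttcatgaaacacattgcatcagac

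This stretch has 3 CpG dinucleotides in 200 bases and a GC content of 48.0%, against 22 in 250 bases and 68.8% at the Plxnc1 promoter. It holds none of the 4 motifs searched. In KO MEFs the only body peak of Plxnc1, with a fold of 2.62, lay in intron 24, 144.4 kb from the TSS.

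Over the whole family, H2Bub1 covered 74.5 kb of WT and 89.3 kb of KO mESC chromatin, a ratio of 1.2, where all coding genes together gave 2.04. In MEFs it covered 23.6 kb in WT and 406 kb in KO, a ratio of 17.2, against 4.52 for all coding genes, and Plxna4 made most of that difference, since the ratio without it was 4.66. The covered lengths of all peaks were 71.6 Mb (WT) and 151.1 Mb (KO) for mESCs and 48.1 and 223.0 Mb for MEFs. The median share of the body covered in mESCs was 0.793% for WT (0.866% over all coding genes) and 11.4% for KO (5.64%), and in MEFs 0 for WT (0) and 24.8% for KO (4.29%). Without the X-linked Plxna3 and Plxnb3 the mESC medians were 11.1% (WT) and 11.4% (KO), so the difference between them rests on those genes, and the MEF medians were 0.3% (WT) and 41.0% (KO). With peaks of a -log10 q of at least 3 both mESC medians were 0. The plexin genes are long, with a median of 40.2 kb against 17.4 kb over all coding genes. Among the 11693 coding genes at least as long as the shortest plexin gene, the KO MEF median was 14.1%.

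The MEF libraries also differed in markers of other cell types. Promoter peaks of Pol II were called at 0 of 9 epithelial and mesothelial markers in WT MEFs and at 4 in KO MEFs (Upk1b, Upk3b, Msln and Wt1), with summed folds of 0 and 78.4, while Cdh1, Epcam, Krt8, Krt18 and Krt19 had none. The summed fold of the 8 fibroblast markers was 167.8 in WT and 84.7 in KO. Of 8 neural markers 2 (Nes and Tubb3) were called in each MEF library, with summed folds of 18.0 and 7.1, and Sox1, Pax6, Neurog2, Sox10, Elavl3 and Dcx had none in either. The endothelial counts were 2 (WT) and 1 (KO) of 7, as named above, and those of the 6 blood markers 1 and 2. The part of these in the plexin values was not tested, and in such bulk samples a change in the number of cells of a type and a change in signal per cell cannot be told apart.

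The semaphorins, co-receptors and cytoplasmic partners of plexins were read in the same way, over lists of 20, 7 and 27 genes. Among semaphorins Pol II was called at 3 promoters (WT) and 4 (KO) in mESCs, and at 14 (WT) and 8 (KO) in MEFs. For co-receptors, mESCs gave 2 (WT) and 1 (KO) and MEFs 6 and 5, and for cytoplasmic partners mESCs gave 15 and 13 and MEFs 25 and 23. All coding genes were also called more often in MEFs (54.1% in WT and 51.1% in KO) than in mESCs (33.9% and 31.3%). Of the neuropilin genes, Nrp1 had MEF folds of 15.02 (WT) and 5.64 (KO) and no peak in mESCs. Nrp2 had MEF folds of 16.76 (WT) and 17.21 (KO), and in mESCs 2.95 in WT and no peak in KO.

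Of these 54 genes, 5 had a Pol II promoter peak in KO mESCs only (5.13% of all genes), led by Sema5a, the ligand of Plxnb3, with 5.34, Arhgef11, whose product binds B-type plexins, with 5.13 and the GTPase gene Mras with 3.73. In WT mESCs only, 7 were called (7.64%), led by Arhgef12, whose product also binds B-type plexins, with 5.01, Rhod with 3.87 and Farp1, an A-type plexin partner, with 3.72. The KO mESC list has a peak 1075 bp from the Arhgef12 TSS, only 75 bp outside the window. In MEFs 9 were called in WT only (4.41%), led by Sema6a with 13.9, Sema7a, the ligand of Plxnc1, with 6.55 and Sema3a with 4.96, and 0 in KO only (1.46%). Plxnc1 and Sema7a were thus both called in WT MEFs only.

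H2Bub1 over the same genes was called in KO MEFs only for 17 (22.9% of all genes), led by Mical2, an actin-oxidising enzyme, with 93.9 kb, Sema3d with 74.1 kb and the receptor kinase gene Met with 50.7 kb, and in WT MEFs only for 1 (0.278%), Sema6a, with 0.677 kb. In mESCs it was called in KO only for 7 (10.1%), led by the kinase gene Mst1r with 4.19 kb, Dpysl2 with 2.51 kb and Cdk5 with 1.57 kb, and in WT only for 1 (2.97%), Dpysl4, with 0.32 kb. The median share covered in KO MEFs was 0.999% over the semaphorins, 40.0% over the co-receptors and 56.7% over the cytoplasmic partners, against 24.8% over the plexins.

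Likeness of coding genes was measured by ranks of the Pol II promoter fold and of the H2Bub1 share of the body across the 8 libraries. By this measure, those most like Plxna1 were Rfc5, 5031439G07Rik and Sppl3, with mean absolute differences of percentile ranks of 0.0459, 0.048 and 0.0493. Each had no promoter peak in WT mESCs and a fold from 4.62 to 6.48 in KO mESCs. Those most like Plxna4 were Colec12, Jph1 and Elmod2, with 0.0321, 0.0332 and 0.048. Each of these had no H2Bub1 in WT MEFs and between 29.9% and 61.7% of the body covered in KO MEFs. For both plexins, the shared values are among those by which the genes were picked, so they are no separate result.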

How the data were processed

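ChIP-seq was carried out on chromatin of WT and Atxn7l3-/- mESCs and MEFs, and 8 of the 16 samples in the labels were analysed. The other 8, inputs and Pol II phosphorylated at serine 2, were not analysed here. Reads of single ends were demultiplexed with bcl2fastq 2.17.1.14, mapped to mm10 with Bowtie 1.0.0 and peaks were called per library with MACS2 2.1.1.20160309, per the submitters' processing notes, as narrow peaks for Pol II and broad peaks for H2Bub1. The control and thresholds of the calls are not given in the sources used here. According to the methods, the authors scaled H2Bub1 by size factors over intergenic regions and Pol II by mapped reads before calling peaks, and how that entered the calls is unknown.

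Each deposited fold is a linear ratio, pileup over local background (narrow peaks: at the summit, broad peaks: mean), so it sets no common level across libraries. The authors also give each peak a −log10 p-value and −log10 q-value and a display score, the last of which was not used. A deeper library gives more and wider peaks, and the depth is unknown.

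Positions were made 1-based and set against GENCODE M21 (GRCm38) in Python 3.11.15 with pandas 2.3.3 and numpy 2.4.6, and drawn with matplotlib 3.10.9. The promoter reached 1000 bp to each side of the gene record's TSS, with an overlap of 1 bp, and a gene with H2Bub1 needed 1 bp of peak in its body. The counting was tested on simulated peak lists. The plexin genes, the pathway and marker lists and the measures were chosen with earlier results of these data known. Other named genes were Atxn7l3, neighbours that share a plexin peak, up to 3 per call in the pathway lists by fold or covered bases, and the 3 genes nearest in pattern to Plxna1 and to Plxna4. As alternatives, peaks needed a −log10 q of 3 or more, WT and KO lists were cut to equal numbers of peaks, and the promoter was narrowed (100 bp before to 300 bp after the TSS). Further ones were the start of any coding transcript, 50% of the peak in the window, 10% of the body, joining of H2Bub1 peaks less than 1000 bp apart, and autosomal plexin genes only.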

Additional observations from a re-analysis of the deposited data

Results flagged for a closer look

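Plxnb1 and Plxnc1 moved in opposite directions in the 2 cell types, which was not tested, since each group has 1 library. At the Plxnb1 promoter the Pol II peak of WT mESCs, with a fold of 5.16, was not called in KO mESCs, while the fold was 3.13 higher in KO than in WT MEFs. Counting the missing peak as 0 gives KO minus WT values of -5.16 and 3.13, nominally 8.29 apart. This is not a measured difference, since signal below the calling threshold is not in the lists and folds of different libraries have no common level. The share of the Plxnb1 body with H2Bub1 differed by -4.5 percentage points in mESCs and by 41.04 in MEFs, 45.54 apart. The share of the Plxnc1 body with H2Bub1 differed by -0.4 points in mESCs and by 0.95 in MEFs, 1.35 apart, and rests on peaks shorter than 1.5 kb. With peaks of a −log10 q of at least 3, the H2Bub1 differences of Plxnc1 were 0 in both cell types and that of Plxnb1 was 0 in mESCs, so neither gene then moved in opposite directions by H2Bub1.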

How the results depend on the processing

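Of 68 family counts and medians recomputed under 8 alternatives, 57 stayed within 1.5 times of the reported value and 11 moved. Counts and medians have no sign, so they could not reverse. The Pol II promoter counts of all 4 libraries were among those that stayed. Exactly at that limit, the WT mESC count went from 2 to 3 at the start of any coding transcript. The KO MEF count went from 6 to 4 with 50% of the peak in the window. With peaks of a −log10 q of at least 3, the plexin genes with H2Bub1 went from 6 to 1 in WT mESCs, from 9 to 4 in KO mESCs and from 4 to 2 in WT MEFs, and the median share covered went from 0.793% to 0 in WT mESCs and from 11.4% to 0 in KO mESCs. With autosomal genes only, the median was 11.08% in WT mESCs, and the MEF medians were 0.3% (WT) and 41.04% (KO). With a call at 10% of the body, the genes with H2Bub1 were 5 in KO mESCs and 2 in WT MEFs. The share of all coding genes at that call was not computed, so these counts have no background beside them. With equal numbers of peaks, the Pol II body peaks of WT mESCs were 1. Of 126 values of single genes, 109 stayed, 17 moved and 0 reversed. At the start of any coding transcript, KO minus WT at Plxna2 was -3.59 in mESCs and 1.61 in MEFs. The mESC value counts the missing KO peak as 0 and so is not a measured difference. At Plxnb1 in mESCs the H2Bub1 difference was -11.66 points with equal numbers of peaks, -8.44 with peaks joined and 0 with the stricter q. No paired analysis was possible because each group has 1 library. Unknown read depth and the absence of replicates limit every value, and a missing peak does not show that signal is absent.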
